A study of Mus musculus with 8 samples.

Results

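The nuclei described here were chosen from single-nucleus multiome libraries of the mouse hippocampus by a rule on RNA that was meant to take pyramidal neurons of the CA3 field. The rule asked for at least 1 UMI (a counted RNA molecule) of Slc17a7, the vesicular glutamate transporter of excitatory neurons, and at least 4 UMIs of Grik4, a kainate receptor subunit. It also asked for at least 2 of Iyd, Cpne4, Cdh24, Trps1 and Nectin3, fewer than 2 of the CA1 genes Fibcd1, Wfs1 and Wnt2, and at most 1 UMI each of Prox1, a dentate granule neuron gene, and Gad2, an inhibitory neuron gene. Of 11518 nuclei kept after filtering, 619 (5.37%) met it and are called CA3-rule nuclei below. By library their numbers were 149 (MF1), 132 (MF2), 161 (HF1) and 177 (HF2).

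The 4 libraries came from the hippocampus of wild-type C57BL/6J mice. Dams, 8 weeks old by the labels (the methods give a range that starts there), ate a folic acid (FA) diet of 2 mg/kg (MF) or 20 mg/kg (HF) for 2 weeks before mating and then through pregnancy and lactation. Their male pups were taken at postnatal day 21. Each diet had 2 libraries, and every nucleus gave both RNA (GEX) and open chromatin (ATAC) counts. How many pups went into a library was not stated. All p-values therefore measure the spread between these libraries, which may be partly technical.

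CA3 pyramidal neurons receive the mossy fibres of dentate granule neurons on large thorny spines, excite each other through recurrent collaterals and drive CA1 through the Schaffer collaterals. They are known for kainate receptors at the mossy fibre synapse and for bursts of action potentials. Granule and CA1 neurons, which lie before and after CA3 in this circuit, served as reference classes.

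The rule asks for raw UMIs and so favours nuclei of high content. The median UMI count of CA3-rule nuclei was 18319, with 4831 genes and 32852 ATAC counts, against 6166, 2640 and 17268 in the other kept nuclei. The 283 CA1-rule nuclei had a median of 14328 UMIs and the 1705 granule-rule nuclei a median of 9940. No barcode was shared between CA3-rule nuclei of different libraries, while 5 of their barcodes also occurred in another library. Summed over CA3-rule nuclei, a library held 2404699 to 3395011 UMIs.

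The rule rests on a threshold, and its edge was soft. The median CA3-rule nucleus held 11 Grik4 UMIs, and 71 nuclei lay at the minimum of 4. Another 75 nuclei with 3 Grik4 UMIs met every other condition. Just inside and just outside the threshold, RNA summed over libraries stood at 314 and 280 CPM for Spock1, 1672 and 1200 for Kcnq5, and 206 and 227 for Cpne4. Here and below, CPM are counts relative to the total counts of the same nuclei, except for single ATAC regions. Prox1 alone kept out 282 nuclei, and Gad2 alone kept out 42.

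The label CA3 was only partly borne out. Clustering of the 619 nuclei on RNA gave 14 sub-clusters, and 5 of them, with 291 nuclei (47.0%), were led by no marker list of another class and held at least 3 of 13 CA3 markers outside the rule at 2-fold or more over the other kept nuclei. These 291 are called core nuclei, and their values stand beside those of all CA3-rule nuclei for the calls of each comparison and for many of the genes named. The other sub-clusters were led by subiculum and entorhinal markers (97 nuclei, 15.7%), oligodendrocyte lineage markers (93 nuclei), CA2 markers (31), granule neuron markers (29), astrocyte markers (32) and microglia markers (11). Most of these also held CA3 markers at 2-fold or more. The CA2-led and microglia-led ones held 8 of the 13, the astrocyte-led one 7, the oligodendrocyte-led ones 7 and 6, and the granule-led one 5. The subiculum-led ones held 5 (sub-cluster 6) and 2 (sub-cluster 10). A further 35 nuclei (sub-cluster 11) held 2 of the 13 CA3 markers at that level. Their leading gene was Fibcd1, which the rule limits as a CA1 gene, the CA1 markers Mpped1 and Gm2115 were also high, and CA1 markers summed to 1411 CPM, the highest of the 14 sub-clusters. In all, 136 nuclei (22.0%) lay in sub-clusters led by a glial list. Scores above 0.05 by Scrublet, a caller of doublets, were given to 125 nuclei (20.2%), with 16.1 and 19.7% in MF against 19.9 and 24.3% in HF. The reference classes held such nuclei too. Without them CA1-rule nuclei went from 99, 55, 67 and 62 (MF1, MF2, HF1, HF2) to 87, 46, 53 and 49. Granule-rule nuclei went from 440, 341, 474 and 450 to 325, 247, 330 and 313. Comparisons of core nuclei used the reference classes whole, so only the CA3 side was narrowed. The thresholds for core nuclei were chosen after values were seen.

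**Figure D1:**
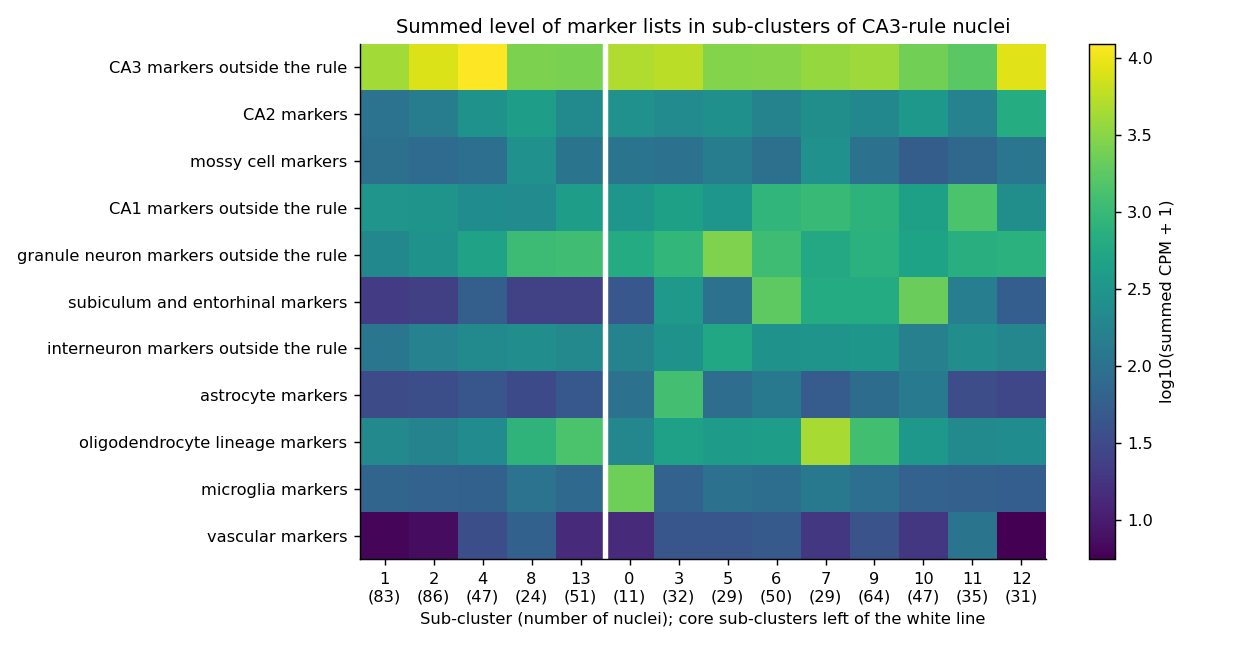
Summed RNA of 11 marker lists (rows) in the 14 sub-clusters of CA3-rule nuclei (columns, number of nuclei in brackets), as log10 of summed CPM plus 1. The 5 core sub-clusters stand left of the white line. CA3 markers are bright in every column. The lists that lead a sub-cluster are brightest right of the line, but core sub-clusters 8 and 13 also hold oligodendrocyte markers (827 and 1407 CPM, of which St18 alone made up 620 and 1156) and granule neuron markers (1097 and 1155 CPM).

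Summed over the list, the 13 CA3 markers outside the rule stood at 4903, 5766, 4408 and 5525 CPM in CA3-rule nuclei of MF1, MF2, HF1 and HF2. Core nuclei held 6047, 8036, 5488 and 7137 CPM. CA1-rule nuclei held 1481 to 1586, granule-rule nuclei 875 to 1078 and the other kept nuclei 1318 to 1506. On this list every CA3-rule library exceeded every library of the other classes, but Kcnq5 alone made up 3109, 3967, 2875 and 3851 CPM of the sums. The definition of the core fixes how its sums differ from those of all CA3-rule nuclei, so these sums describe it and do not support the label. Subiculum and entorhinal markers went from 383, 456, 444 and 530 CPM in all CA3-rule nuclei to 20.0 to 36.2 CPM in core nuclei. CA1-rule nuclei, which were not narrowed, held 272 to 332 CPM of them. CA1 markers outside the rule stood at 277 to 320 CPM in core nuclei and at 1575 to 1949 in CA1-rule nuclei. Granule neuron markers outside the rule stood at 391 to 510 CPM in core nuclei and at 4682 to 5213 in granule-rule nuclei. C1ql2, Dsp, Stxbp6, Glis3 and Pdzd2 of that list also served to choose granule-rule nuclei. Their level in that class was therefore partly set in advance.

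The chromatin of the same nuclei was not used by the rule, so it could be tested. Of the ATAC regions called against both reference classes, those with the smallest p against CA1-rule nuclei were named. From these, 6 are printed because the accessibility results below turn on them. Each line gives the central 300 bases, taken from GRCm38 (mm10) on the plus strand. Capitals mark matches on either strand to the motifs searched, mostly CAGATG, an E box of the kind bound by neuronal bHLH factors such as Neurod proteins, which reads CATCTG on the other strand. The first 5 were more accessible in CA3-rule nuclei than in both reference classes and the last was less accessible.
Intron of Kcnd3, chr3:105653912-105654211: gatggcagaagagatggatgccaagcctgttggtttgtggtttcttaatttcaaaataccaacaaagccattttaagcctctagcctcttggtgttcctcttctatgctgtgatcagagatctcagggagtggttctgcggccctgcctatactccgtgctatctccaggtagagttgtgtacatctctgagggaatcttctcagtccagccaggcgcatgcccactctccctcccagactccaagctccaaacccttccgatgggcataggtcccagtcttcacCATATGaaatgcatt
Upstream of Tspan11, chr6:127863797-127864096: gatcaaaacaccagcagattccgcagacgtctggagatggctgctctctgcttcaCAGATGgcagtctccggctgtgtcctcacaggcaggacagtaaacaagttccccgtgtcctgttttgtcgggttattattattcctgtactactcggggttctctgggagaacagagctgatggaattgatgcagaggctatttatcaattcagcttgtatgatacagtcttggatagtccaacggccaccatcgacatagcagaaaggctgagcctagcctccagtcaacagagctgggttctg
Upstream of Usp47, chr7:112012102-112012401: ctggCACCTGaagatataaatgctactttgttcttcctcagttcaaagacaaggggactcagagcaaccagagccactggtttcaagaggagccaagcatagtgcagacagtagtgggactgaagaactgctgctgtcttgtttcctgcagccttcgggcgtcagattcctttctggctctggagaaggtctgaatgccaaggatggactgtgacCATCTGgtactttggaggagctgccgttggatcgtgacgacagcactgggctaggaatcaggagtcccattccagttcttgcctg
Downstream of the start of Mrps23, chr11:88226964-88227263: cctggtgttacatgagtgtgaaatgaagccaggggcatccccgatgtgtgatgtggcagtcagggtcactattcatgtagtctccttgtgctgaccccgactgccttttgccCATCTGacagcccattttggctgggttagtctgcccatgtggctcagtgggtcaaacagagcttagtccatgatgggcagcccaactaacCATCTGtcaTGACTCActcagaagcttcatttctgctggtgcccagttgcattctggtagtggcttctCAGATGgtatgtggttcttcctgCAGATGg
Upstream of Cxadr, chr16:78283053-78283352: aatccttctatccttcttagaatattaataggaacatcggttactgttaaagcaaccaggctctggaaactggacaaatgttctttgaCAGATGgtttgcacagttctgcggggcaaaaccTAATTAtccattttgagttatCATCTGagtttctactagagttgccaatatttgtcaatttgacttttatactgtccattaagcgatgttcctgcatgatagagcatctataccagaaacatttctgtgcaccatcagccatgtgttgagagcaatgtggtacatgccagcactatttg
Upstream of Atp5k, chr5:108436425-108436724: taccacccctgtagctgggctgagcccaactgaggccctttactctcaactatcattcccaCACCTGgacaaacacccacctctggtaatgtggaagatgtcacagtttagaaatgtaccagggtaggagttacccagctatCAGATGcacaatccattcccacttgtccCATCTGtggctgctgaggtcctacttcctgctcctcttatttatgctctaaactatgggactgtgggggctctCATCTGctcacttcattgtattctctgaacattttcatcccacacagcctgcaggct

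In these windows the Mrps23 region carried 4 CAGATG matches and 1 TGACTCA, the site of AP-1 factors. The Cxadr region carried 2 CAGATG matches and 1 TAATTA, a homeobox core. The Tspan11 and Usp47 regions carried 1 CAGATG each, Usp47 also 1 CAGGTG, and the Kcnd3 intron held 1 CATATG and no CAGATG. The less accessible Atp5k region carried 3 CAGATG and 1 CAGGTG. Of the regions not printed, the more accessible ones near Mobp, Il7 and Mgat5 carried 2, 2 and 1 CAGATG, and of the less accessible ones that before Cryzl2 carried 1 and those in introns of Pigk and Rtf1 carried none.

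RNA of CA3-rule nuclei was compared with that of the other kept nuclei in each library. As the rule was a rule on RNA, these values describe the nuclei and were not tested. A gene counted as higher when it was at least 2-fold higher in all 4 libraries and reached 20 CPM in every one. Values under 3 UMIs on the lower side were set to 3 UMIs, so some folds are lower bounds. Of 6625 genes described, 82 (1.24%) were higher and 280 (4.23%) lower. In core nuclei 150 genes were higher and 588 lower.

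The 20 genes outside the rule with the largest folds were of several kinds, and some of them are described here. Spock1, which encodes the proteoglycan testican-1, stood at 691, 759, 599 and 705 CPM in CA3-rule nuclei and at 135, 151, 122 and 170 CPM in the other kept nuclei. In CA1-rule nuclei it stood at 34.2, 30.4, 46.0 and 55.4 CPM, and in core nuclei at 867, 1042, 776 and 974. At least 1 UMI of Spock1 was seen in 92.2% of CA3-rule nuclei, 99.7% of core nuclei and 23.6% of the others. Hs3st4, a heparan sulfate sulfotransferase, stood at 1738, 1944, 1767 and 1976 CPM against 328 to 531 in the other kept nuclei and 2111 to 2701 in core nuclei. Mgat4c, a glycosyltransferase, stood at 2224, 2004, 2229 and 2405 CPM against 491 to 619, with 2551 to 2918 in core nuclei. Every value of these genes in CA3-rule nuclei exceeded every value in the other kept nuclei, but the genes were chosen for that gap.

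Trhde, the enzyme that breaks down thyrotropin-releasing hormone outside cells, stood at 790, 677, 793 and 675 CPM against 144 to 179 in the other kept nuclei. Ccbe1, a secreted protein of lymphatic growth, stood at 271, 248, 248 and 274 CPM against 62.6 to 75.0. Against CA1-rule nuclei the gap was wider, at 2.60 to 9.39 CPM there, while granule-rule nuclei held 130 to 142 CPM. Ccbe1 thus separated CA3-rule from CA1-rule nuclei by at least 29.1-fold and from granule-rule nuclei by no more than 1.93-fold. Mndal and Ifi203, which belong to a cluster of interferon-inducible genes, were also among the highest. Mndal stood at 82.7, 61.1, 67.1 and 66.3 CPM against 10.9 to 13.98 in the other kept nuclei, and at 105 to 130 in core nuclei. Ifi203 stood at 42.8, 35.8, 33.3 and 21.5 CPM against 3.20 to 4.94. As members of a family of close relatives, their counts may be split between copies.

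Among transcripts named only by a model or clone number, Gm32647 stood at 717, 1013, 745 and 1259 CPM against 84.2 to 135 in the other kept nuclei. 4930467D21Rik stood at 44.7, 52.0, 37.2 and 73.0 CPM, and no UMI of it was counted in CA1-rule nuclei of any library. At the other end, Dlx6os1, a transcript of inhibitory neurons, stood at 1.48, 0.416, 2.44 and 2.06 CPM against 32.2 to 38.3. Adarb2, high in caudal interneurons and in granule-rule nuclei, stood at 41.7, 66.5, 72.6 and 60.4 CPM against 716 to 900 in the other kept nuclei. In core nuclei Adarb2 was at 0.779 to 8.89 CPM, so most of its counts lay in the remaining sub-clusters. Ptprm showed the same kind of gap, at 14.04 to 19.7 CPM in all CA3-rule nuclei and 0.779 to 5.18 in core nuclei.

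**Figure D2:**
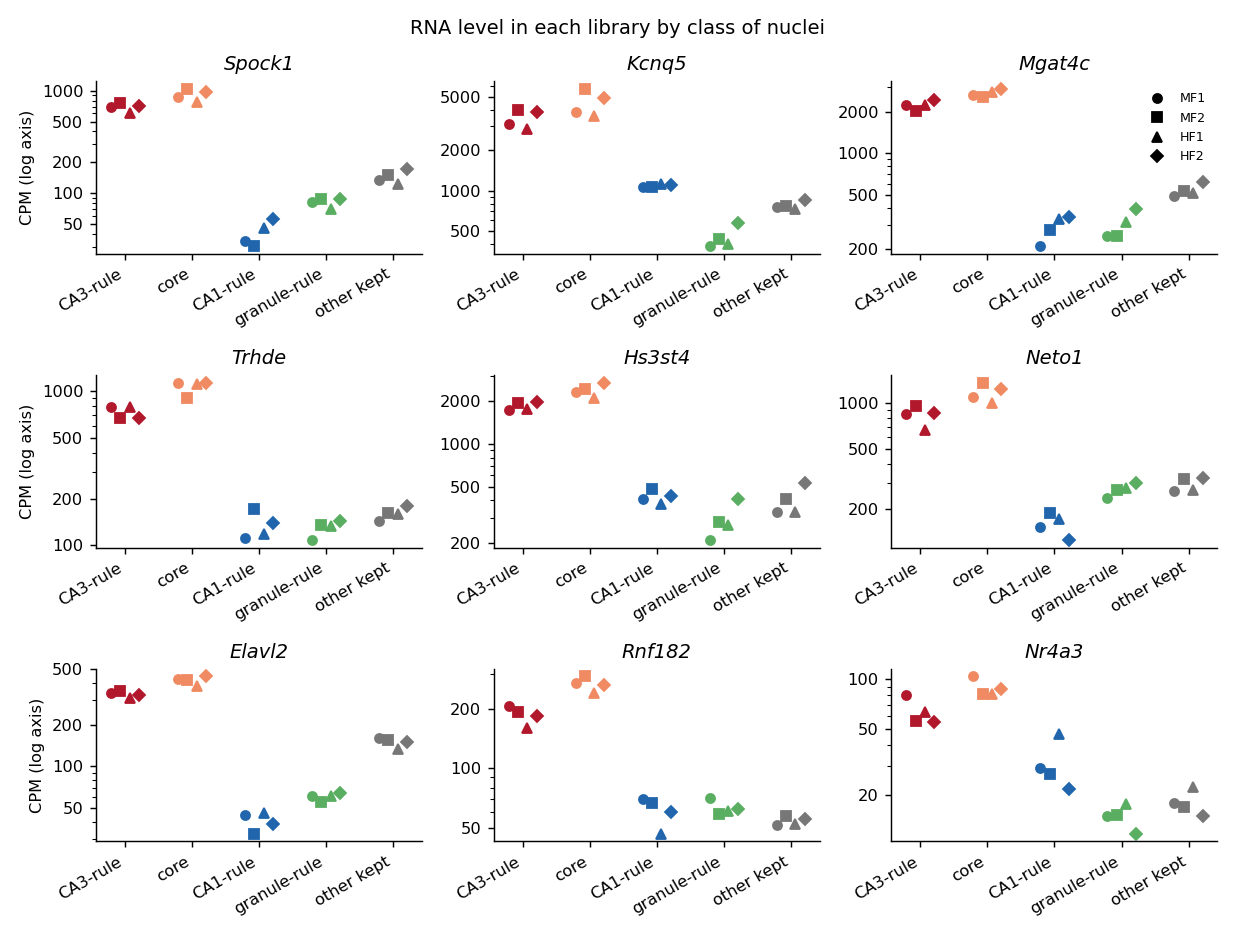
RNA level (CPM, log axis) of 9 genes outside the rule in each library, for CA3-rule nuclei, their core, CA1-rule, granule-rule and other kept nuclei. Each symbol is 1 library. In all 9 panels the 4 CA3-rule values lie above the 4 values of every other class, and core values lie mostly higher still. The genes were picked among those at least 2-fold higher than in the other kept nuclei, so that gap was fixed by the choice. Shisa6 and Neurod6, which are past the same cut but overlap CA1-rule nuclei, are not drawn.

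The genes of the rule set the scale for these values and support nothing. Grik4 stood at 681, 802, 656 and 767 CPM in CA3-rule nuclei, 21.9 to 37.6 in CA1-rule nuclei and 207 to 268 in granule-rule nuclei. Nectin3, a cell adhesion molecule, stood at 314 to 417 CPM against 51.1 to 59.2 in the other kept nuclei. Trps1, a zinc finger repressor, stood at 1052 to 1182 CPM and Cpne4, a copine, at 561 to 573. Iyd, an iodotyrosine deiodinase, and Cdh24, a cadherin, were far lower at 9.43 to 20.7 and 14.4 to 18.7 CPM, and Iyd had a UMI in 15.3% of CA3-rule nuclei. Much of the choice therefore rested on Grik4, Cpne4, Trps1 and Nectin3.

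Of the CA3 markers outside the rule, 11 of 13 were high enough to describe, and 7 were higher in all 4 libraries (Elavl2, Rnf182, Spock1, Bok, Socs2, Nrip3 and Kcnq5). These 7 made up 63.6% of those described, beside 1.24% of all genes. The median of the list was 1.55 on the log2 scale, beside -0.14 over all genes described. Kcnq5, a channel subunit of the M current, stood at 3109, 3967, 2875 and 3851 CPM against 726 to 847 in the other kept nuclei. Elavl2, a neuronal RNA-binding protein, stood at 336, 347, 312 and 326 CPM against 133 to 160. Against CA1-rule nuclei, 9 of 12 described were higher, with Mas1 and Galnt14 added. Ociad2, Tyro3 and Lypd1 did not follow, and Lypd1 stood at 26.6 to 42.4 CPM against 40.1 to 51.2 in the other kept nuclei. Those counts compare with 3.06% of 5947 genes higher and 1.38% lower than in CA1-rule nuclei, and 2.77 and 3.39% of 6381 genes against granule-rule nuclei.

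Glutamate receptor genes differed between CA3-rule and CA1-rule nuclei in a few members. Of 6 genes of kainate receptors and their auxiliary subunits outside the rule, Neto1 was higher than in the other kept nuclei and Grik1 lower, beside 1.24% of all genes higher and 4.23% lower. Against CA1-rule nuclei Neto1 and Grik3 were higher, beside 3.06% of all genes. Neto1 stood at 848, 955, 666 and 866 CPM in CA3-rule nuclei, 1006 to 1368 in core nuclei, 262 to 321 in the other kept nuclei and 126 to 190 in CA1-rule nuclei. It encodes an auxiliary subunit that slows kainate receptor currents at mossy fibre synapses. Of 15 AMPA receptor genes described, Cacng4 was lower, at 3.83 to 8.24 CPM against 22.9 to 26.0, and Shisa6 higher, at 885, 1037, 797 and 1162 CPM against 388 to 528, yet CA1-rule nuclei held 763 to 975 CPM. None of 9 NMDA and metabotropic receptor genes reached 2-fold. Grin2a, an NMDA receptor subunit, stood at 1574 to 1954 CPM in CA3-rule nuclei and 2848 to 3454 in CA1-rule nuclei, without overlap. Gria1, an AMPA receptor subunit, stood at 1740 to 2143 and 2578 to 3261 CPM in the same order.

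Of 27 described genes linked to the mossy fibre and its thorny synapses, none was higher than in the other kept nuclei and 2 (7.41%, beside 4.23% of all genes) were lower (Gpc4 and C1ql3). Against CA1-rule nuclei 3 were higher and 2 lower, beside 3.06 and 1.38% of all genes. Cdh9, a cadherin of the mossy fibre synapse, stood at 431, 440, 495 and 386 CPM in CA3-rule nuclei, 647 to 721 in core nuclei and 32.9 to 62.5 in CA1-rule nuclei. Nrp2, a semaphorin receptor, stood at 109 to 122 CPM against 21.3 to 39.4 in CA1-rule nuclei, and Ephb1, an ephrin receptor, at 170 to 202 against 18.7 to 53.5. Adgrl2, the adhesion receptor latrophilin-2, went the other way, at 49.7 to 83.9 CPM against 196 to 243. Tenm3, a teneurin that guides CA1 wiring, stood at 364 to 490 CPM against 986 to 1701. Both were lower still in core nuclei, with Adgrl2 at 3.43 to 19.2 CPM and Tenm3 at 80.0 to 95.1.

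Of 38 genes described for potassium, HCN and calcium channels, Kcnq5 alone (2.63%, beside 1.24% of all genes) was higher than in the other kept nuclei. Against CA1-rule nuclei 4 of 35 were higher and 1 lower, beside 3.06 and 1.38% of all genes. Kcnd3, which encodes Kv4.3 of the A-type current, stood at 234, 246, 204 and 249 CPM against 46.4 to 77.9 in CA1-rule nuclei, and 223 to 273 in core nuclei. Cacna1c, an L-type calcium channel, stood at 1036 to 1229 CPM against 285 to 383, and 1262 to 1691 in core nuclei. Kcnh7, an Erg-type potassium channel, stood at 495 to 678 CPM against 2197 to 2590 in CA1-rule nuclei, and at 49.7 to 111 in core nuclei. Among 39 transcription factors described, 1 (2.56%, beside 1.24% of all genes) was higher than in the other kept nuclei. This was Neurod6, a bHLH factor of excitatory neurons, at 178, 153, 195 and 115 CPM against 51.7 to 80.5. CA1-rule nuclei, however, held 142 to 186 CPM of it. Another 8 were lower (20.5%, beside 4.23% of all genes), namely Mef2c, Nfia, Rfx3, Npas3, Rorb, Tshz1, Zfhx3 and Zfhx4. In core nuclei 15 were lower, where the share of all genes that were lower was 8.88%. Rfx3, for example, stood at 314 to 368 CPM against 898 to 1127 in the other kept nuclei. Bcl11b, a zinc finger factor, stood at 60.9 to 96.9 CPM against 230 to 340 in CA1-rule nuclei. Sox5 was the only factor higher than in CA1-rule nuclei, at 349 to 488 CPM against 126 to 223.

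None of 12 GABA receptor genes, 12 folate and one-carbon genes or 5 corticosteroid receptor genes and partners reached 2-fold in either direction. Among 13 neurotrophin and growth factor genes, Erbb4 was lower, and Tgfb2 was higher than in CA1-rule nuclei at 47.8 to 73.1 CPM against 10.4 to 13.1. The glucocorticoid receptor gene Nr3c1 stood at 54.9 to 84.2 CPM in CA3-rule nuclei and 133 to 148 in CA1-rule nuclei. Of 5 immediate early genes described, Nr4a3, an orphan nuclear receptor induced by activity, was higher at 80.1, 55.7, 63.2 and 55.4 CPM against 14.9 to 22.4. None of 79 ribosomal protein genes or 77 oxidative phosphorylation genes reached 2-fold, and their medians were -0.57 and -0.29 on the log2 scale, beside -0.14 over all genes described.

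Core nuclei varied among themselves. Sub-cluster 1 (83 nuclei) was led by Cpne9, Prkcd, Iyd and Ttn, and sub-cluster 2 (86 nuclei) by Gm11639, Efemp1, Evc2, Itga7 and Tmem144. Sub-cluster 4 (47 nuclei) was led by Plagl1, Kcnmb2 and Tcerg1l, sub-cluster 8 (24 nuclei) by Tll1, Prss23, Pld5, Htr2c and Calcrl, and sub-cluster 13 (51 nuclei) by Scn7a, Kl and St18. Iyd, a gene of the rule, stood at 59.7 CPM in sub-cluster 1, 13.6 in sub-cluster 2 and 0 to 4.86 in the other core sub-clusters. Summed CA3 markers ranged from 2597 CPM in sub-cluster 13 to 12423 CPM in sub-cluster 4. Sub-clusters 8 and 13, at 2748 and 2597 CPM, lay below 7 of the 9 sub-clusters left out of the core, which ran from 2935 CPM (granule-led) to 8721 CPM (CA2-led), and above the remaining ones at 2376 and 1738 CPM. The number of CA3 markers at 2-fold or more ranked them otherwise. It was 7 of 13 in sub-cluster 8 and 9 of 13 in sub-cluster 13, against 2 to 8 in the sub-clusters left out. Sub-cluster 8 also had the highest sum of mossy cell markers of all 14, at 274 CPM against 81.7 to 107 in the other core sub-clusters, of which Calcrl, a marker on that list, made up 201. Its CA2 markers summed to 404 CPM, below the 667 of the CA2-led sub-cluster only. Tll1 did not lead in every library, since no UMI of it was counted in the 4 nuclei of sub-cluster 8 in MF2. Each core sub-cluster held nuclei of all 4 libraries.

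The genes leading each core sub-cluster were looked up in the ATAC counts of the same nuclei, summed over gene bodies. As members of 1 library share their source, libraries were compared. Of 48 leading genes, 19 (39.6%) were more accessible in their own sub-cluster than in other core nuclei in all 4 libraries. Over all genes with at least 7 counts in the sub-cluster, the same held for 7.75% of 98106 gene and sub-cluster pairs. St18, a zinc finger factor that is also one of the 9 oligodendrocyte lineage markers, stood at 77.5, 112, 139 and 144 ATAC CPM in sub-cluster 13 against 50.8, 65.6, 49.5 and 58.7 in other core nuclei. Calcrl, a receptor for CGRP and adrenomedullin, stood at 51.1, 72.5, 39.95 and 105 ATAC CPM in sub-cluster 8 against 21.9, 34.1, 25.8 and 17.2. For these genes the RNA difference and the accessibility difference ran in the same direction in every library. Other leading genes did not show this, such as Tll1, which was less accessible in sub-cluster 8 in every library. No test was made, since the clusters were made from RNA of these nuclei.

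Accessibility was then tested between classes with libraries as replicates. Counts of ATAC regions within each gene body and 2 kb before it were summed per library. The test was edgeR's quasi-likelihood test with library as a block. A gene was called at a Benjamini-Hochberg adjusted p (FDR) under 0.05 and at least 1.2-fold. Against CA1-rule nuclei 3581 of 22481 genes (15.9%) were called, 1743 (7.75%) more and 1838 (8.18%) less accessible in CA3-rule nuclei. Against granule-rule nuclei 8641 of 23573 (36.7%) were called, 4932 (20.9%) more and 3709 (15.7%) less accessible. With core nuclei, 3912 and 9179 genes were called, of which 2654 and 6844 were shared with the calls of all CA3-rule nuclei.

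Several genes of the rule were more accessible where their RNA was required, although the rule saw no chromatin. Against CA1-rule nuclei Grik4 was higher by 0.79 ± 0.05 (log2, SE), Cpne4 by 0.94 ± 0.07 and Trps1 by 0.70 ± 0.11. In core nuclei the same differences were 1.08, 1.23 and 0.94. Iyd was at 1.12 ± 0.45 and was not called (FDR 0.0764 in edgeR), but was called in core nuclei at 1.55 ± 0.50 (FDR 0.0203 in edgeR). Nectin3, at -0.17 ± 0.10, and Cdh24, at -0.01 ± 0.16, were not called. Of the genes the rule limits, Fibcd1 was lower by -0.43 ± 0.12 and Wnt2 by -0.85 ± 0.23, whereas Wfs1, at -0.23 ± 0.17, was not called. Fibcd1 missed the threshold without HF2, at -0.34, and Wnt2 without MF1, at -0.76, and both missed it without the nuclei that held at least 2 CA2 or mossy cell markers. That setting removed most nuclei and kept 35, 32, 33 and 41 of the 619 in MF1, MF2, HF1 and HF2.

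Against granule-rule nuclei the widest gap among rule genes was that of Prox1, the transcription factor that keeps granule neuron identity, at -2.27 ± 0.12. Trps1 was higher by 0.97 ± 0.08, Iyd by 0.96 ± 0.27, Cpne4 by 0.60 ± 0.05, Grik4 by 0.55 ± 0.04 and Nectin3 by 0.45 ± 0.07. Wnt2, which the rule limits, was also called higher, by 0.69 ± 0.20, while Cdh24, Fibcd1 and Wfs1 were not called. The Grik4 result depended on the part of the gene that was counted. Within 2 kb either side of its start, Grik4 was at -0.03 ± 0.11 against granule-rule nuclei. Against CA1-rule nuclei that window was at 0.38 and was not called. The single region at the Grik4 start was at -0.33 ± 0.11 against granule-rule nuclei and 0.46 ± 0.19 against CA1-rule nuclei, short of the 2-fold call used for regions. Against CA1-rule nuclei it also missed the FDR threshold (FDR 0.0856 in edgeR). Inside the gene, 18 of 57 regions tested were more accessible than in CA1-rule nuclei and none less, beside 8.61% and 7.9% of all regions tested. The called differences from CA1-rule nuclei thus lay inside the gene body, as the start region itself was not called.

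The CA3 markers outside the rule were mixed on chromatin. Against CA1-rule nuclei 5 of 13 were more accessible (Spock1 1.25 ± 0.07, Socs2 1.42 ± 0.15, Nrip3 0.76 ± 0.17, Elavl2 0.72 ± 0.09 and Bok). Another 2 were less accessible (Mas1 -0.50 ± 0.12 and Lypd1 -0.75 ± 0.17). Of all genes tested, 7.75% were more and 8.18% less accessible. Mas1, an angiotensin peptide receptor gene, had higher RNA than in CA1-rule nuclei and lower accessibility. Kcnq5 was at 0.13 ± 0.07 and was not called, while its RNA was at least 2.57-fold higher in each library. Against granule-rule nuclei 9 of 13 were more accessible, led by Spock1 at 1.55 ± 0.05, and 2 less. Of all genes tested there, 20.9% were more and 15.7% less accessible, so the 2 lie near that share. Of 9 CA1 markers, 8 were less accessible than in CA1-rule nuclei, with a median of -0.90, beside 8.18% of all genes. All 12 granule neuron markers were less accessible than in granule-rule nuclei, with a median of -0.67, beside 15.7% of all genes. As C1ql2, Dsp, Stxbp6, Glis3 and Pdzd2 among them chose the granule-rule nuclei by RNA, that list is not independent of the class. Spock1 held 38 regions tested against CA1-rule nuclei, of which 18 were more accessible and none less.

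**Figure D3:**
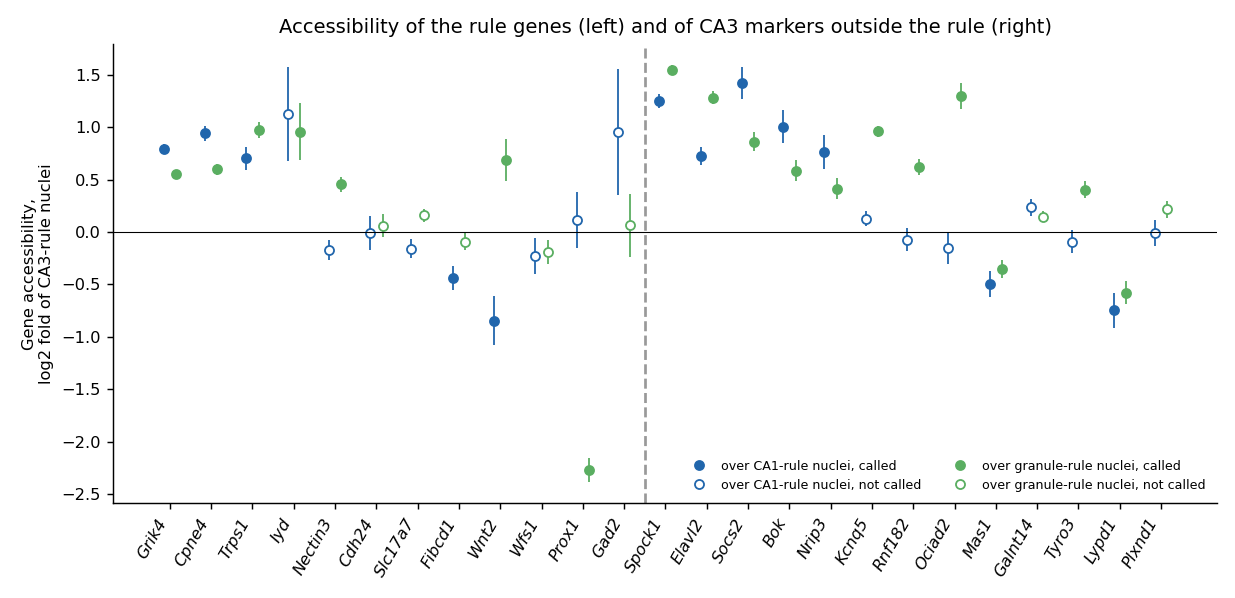
Log2 difference in gene accessibility of CA3-rule nuclei from CA1-rule nuclei (blue) and from granule-rule nuclei (green), with bars of 1 SE. Filled points passed the call. Genes of the rule stand left of the dashed line and CA3 markers outside it right. Prox1 lies lowest, at -2.27 against granule-rule nuclei, and Spock1 is called in both, at 1.25 and 1.55.

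Genes chosen by RNA were compared with their accessibility as a whole. Of 176 genes with RNA at least 2-fold higher than in CA1-rule nuclei, 97 (55.1%) were more accessible and 2 less, where 6.35% of the genes with described RNA were more accessible. Of 76 genes with RNA at least 2-fold lower, 60 (78.9%) were less accessible and 0 more, beside 9.83%. Against granule-rule nuclei 149 of 169 RNA-higher genes (88.2%) were more accessible, beside 14.4%, and 133 of 213 RNA-lower genes (62.4%) less, beside 17.1%. These are counts over genes of the same nuclei and carry no test.

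Members of the receptor and channel lists behaved alike in RNA and chromatin in several cases. Of 44 channel genes, 8 were more and 10 less accessible than in CA1-rule nuclei. For AMPA receptors it was 3 and 4 of 16, and for kainate receptors 2 and 1 of 6. For NMDA and metabotropic receptors it was 0 and 3 of 14. Over all genes tested the shares were 7.75 and 8.18%. Against CA1-rule nuclei the accessibility of Neto1 was higher by 0.57 ± 0.12, that of Kcnd3 by 0.85 ± 0.07, that of Cacna1c by 0.48 ± 0.05 and that of Tgfb2 by 0.76 ± 0.13. It was lower for Kcnh7 (-1.04 ± 0.09), Adgrl2 (-0.93 ± 0.10), Bcl11b (-0.84 ± 0.09), Tenm3 (-0.58 ± 0.06), Grin2a (-0.48 ± 0.05), Gria1 (-0.48 ± 0.05) and Grin2b (-0.35 ± 0.05). All of these were called, each in the direction of its RNA. Cdh9, at 0.41 ± 0.16, was not called (FDR 0.0733 in edgeR) although its RNA was at least 7.46-fold higher. Sox5, at 0.10 ± 0.05, was not called either.

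Single regions gave the sharpest contrasts. Peaks had been called in each library separately, and regions with a peak in all 4 libraries (154764 of 253710 merged regions) were used. For single regions, ATAC CPM are relative to the counts of the same nuclei inside the regions used. Here the call was an FDR under 0.05 and at least 2-fold. Against CA1-rule nuclei 20014 of 121155 regions (16.5%) were called, 10437 (8.61%) more and 9577 (7.9%) less accessible. Against granule-rule nuclei 42155 of 149301 (28.2%) were called, 25891 (17.3%) more and 16264 (10.9%) less. The balance of directions turned without the nuclei that held at least 2 CA2 or mossy cell markers, to 2385 more and 5064 less against CA1-rule nuclei, and to 8024 more and 14183 less against granule-rule nuclei. CA3-rule nuclei were higher than both classes in 4337 regions (3.61% of 120137 tested in both) and lower than both in 1061 (0.883%). With core nuclei 20868 regions were called against CA1-rule nuclei, and 15898 of them were among the 20014.

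The Kcnd3 intron region (chr3:105653605-105654520) stood at 20.6, 20.4, 13.8 and 19.5 ATAC CPM in CA3-rule nuclei and at 0.422, 1.69, 3.56 and 0 in CA1-rule nuclei. The difference was 3.78 ± 0.42 on the log2 scale (FDR 7.46e-10 in edgeR), and 1.29 ± 0.18 from granule-rule nuclei. Every CA3-rule library lay above every CA1-rule and granule-rule library, and the RNA of Kcnd3 was higher than in CA1-rule nuclei as well. The region chr6:127863468-127864427, 23.6 kb before the start of Tspan11, stood at 11.8, 9.08, 11.7 and 12.4 ATAC CPM, with no count in CA1-rule nuclei of any library. Set against 3 counts per CA1-rule library, CA3-rule nuclei were at least 5.37-fold higher. Granule-rule nuclei held 0.530 to 1.94 ATAC CPM there, a difference of 3.48 ± 0.32.

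The region chr7:112011797-112012707, 11.3 kb before Usp47, stood at 13.6, 11.8, 12.1 and 15.8 ATAC CPM against 0, 1.13, 0 and 0.537 in CA1-rule nuclei. The region chr11:88226665-88227563, 22.7 kb past the start of Mrps23, stood at 10.6, 13.98, 11.1 and 17.8 against 0.422, 1.13, 1.19 and 0. The region chr16:78282716-78283691, 18.3 kb before Cxadr, stood at 12.1, 10.3, 6.59 and 8.89 with no count in CA1-rule nuclei, which makes it at least 3.70-fold higher. All 3 were also called against granule-rule nuclei, at 2.09 ± 0.25, 1.51 ± 0.22 and 2.32 ± 0.29. Regions in an intron of Mgat5 (chr1:127368267-127369218) and 423 kb before Il7 (chr3:8036411-8037356) likewise had no count in CA1-rule nuclei, for at least 5.76-fold and 4.79-fold higher values. In core nuclei these regions were higher than in all CA3-rule nuclei of the same library, as at Usp47 with 22.7, 14.8, 19.6 and 22.1 ATAC CPM.

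Of the named regions higher than in both classes, an exon region of Mobp (chr9:120174237-120175201) had the smallest p against CA1-rule nuclei. It stood at 26.9, 32.6, 24.0 and 31.1 ATAC CPM against 9.28, 5.63, 3.56 and 4.84 in CA1-rule nuclei (2.27 ± 0.25). Mobp encodes a myelin protein. The region was as high in core nuclei, at 29.2, 39.3, 34.6 and 40.1 ATAC CPM, where oligodendrocyte lineage markers were at 337, 410, 521 and 383 CPM of RNA against 500, 635, 759 and 882 in all CA3-rule nuclei. Among regions lower than in both classes, the one 2.13 kb before Atp5k (chr5:108436112-108437038) stood at 1.51, 1.47, 0.425 and 1.35 ATAC CPM against 13.5, 20.3, 16.0 and 18.8 in CA1-rule nuclei. The difference was -3.83 ± 0.39, and no count was seen there in core nuclei of any library. A region shared by Pigk and St6galnac5 introns (chr3:152837597-152838502) stood at 7.55, 8.10, 6.38 and 7.73 ATAC CPM against 36.7, 24.8, 36.2 and 39.8 (-2.20 ± 0.21). Regions before Cryzl2 (chr1:157443274-157444192) and in an intron of Rtf1 (chr2:119720812-119721715) were lower by -1.68 ± 0.18 and -2.57 ± 0.27.

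Few of the regions higher or lower than in both classes lay at gene starts. Within 1 kb of the start of a coding gene lay 0.991% of the higher regions, 1.23% of the regions lower than both and 10.4% of all tested in both. Over 50 kb from any such start lay 58.2% of the higher regions, 54.3% of the regions lower than both and 44.6% of all tested. The median GC content of the higher regions was 47.0%, beside 48.3% over all tested. The start regions of rule genes were few among calls. That of Fibcd1 was less accessible than in CA1-rule nuclei by -0.96 ± 0.29 (short of 2-fold, FDR 0.0136 in edgeR), that of Prox1 than in granule-rule nuclei by -2.37 ± 0.19. The region at the start of Trps1 was at 0.89 ± 0.18 against granule-rule nuclei (FDR 1.04e-04 in edgeR), short of 2-fold, while no start region of Iyd, Cpne4 or Nectin3 was among those tested.

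The central 300 bases of each region were searched for 13 motifs on both strands. CAGATG was present in 56.8% of regions higher than both classes, 40.4% of those lower than both and 37.0% of all tested in both. TGACTCA was present in 16.4%, 4.71% and 9.57% in the same order. ATTTGCAT, the octamer of POU factors, was present in 1.41%, 6.03% and 2.38%, and the GC box GGGGCGGGG in 0.715%, 1.70% and 3.92%. CAGATG and TGACTCA were thus commoner in the higher regions than among all tested, and ATTTGCAT commoner in the lower ones. Among all regions lower than in CA1-rule nuclei, whether or not lower than in granule-rule nuclei, CATATG was present in 18.3% and ATTTGCAT in 7.07%. The shares of all tested against CA1-rule nuclei were 9.43% and 2.45%. With core nuclei CAGATG was present in 54.8% of regions higher than in CA1-rule nuclei, beside 37.7% of those tested, and ATTTGCAT in 7.40% of those lower, beside 2.42%.

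The shares of the other motifs were as follows. CAGCTG was present in 25.5% of regions higher than both, 23.7% of those lower and 23.5% of all tested, CAGGTG in 14.1, 12.9 and 16.7%, CATATG in 12.3, 10.2 and 9.32% and TAATTA in 9.68, 9.05 and 8.09%. TGACGTCA was present in 0.300, 0.189 and 0.733%, TGGGTGTGG in 0.646, 1.13 and 0.858% and TGACCTTTG in 0.231, 0.283 and 0.228%. The NFI palindrome and the RFX palindrome were present in at most 0.300% of each set. Each motif was counted on its own, so that matches of different motifs could overlap. A match is a description of the letters and not a bound site, and the cause of these shares was not tested.

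**Figure D4:**
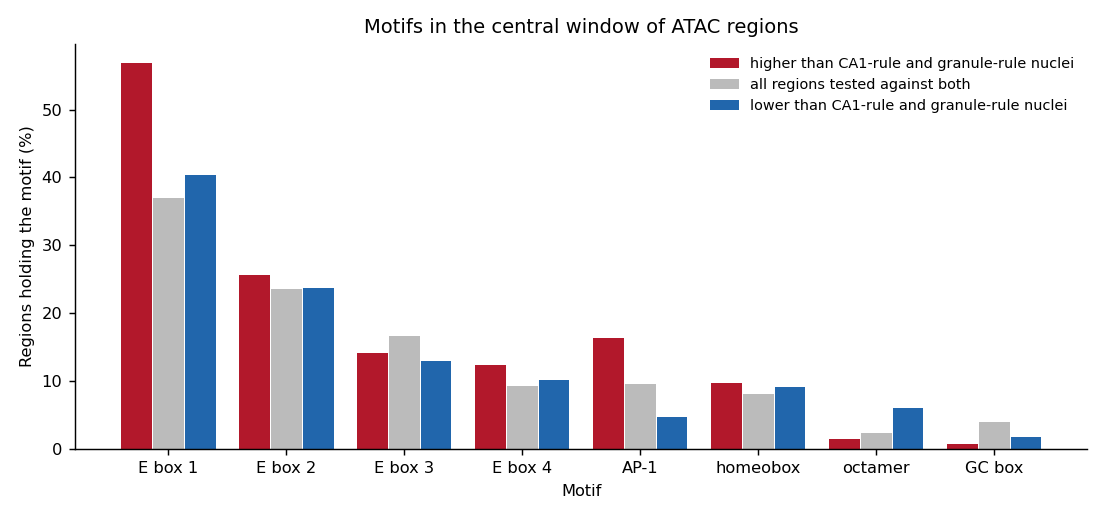
Share of ATAC regions (%) whose central 300 bases hold a motif, for regions higher than in both reference classes (red), all regions tested against both (grey) and regions lower than both (blue). The E boxes are numbered with CAGATG as 1 and CATATG as 4. E box 1 stands at 56.8% in red and 37.0% in grey, and the octamer is highest in blue at 6.03%.

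The diets were compared by library. CA3-rule nuclei made up 5.14% (exact Clopper-Pearson 95% interval 4.36 to 6.01) and 5.87% (4.93 to 6.92) of kept nuclei in MF and 4.64% (3.96 to 5.39) and 6.11% (5.27 to 7.04) in HF. Intervals cover counting error only. The means were 5.50 ± 0.516% and 5.37 ± 1.04% (SD, n = 2), a difference of -0.132 points with p = 1 in an exact two-sided permutation test, and the MF values lay within the range of the HF values. The smallest p that 2 against 2 libraries allow is 0.3333. Core nuclei made up 2.76 and 2.85% of kept nuclei in MF against 2.07 and 2.59% in HF, a difference of -0.472 points at that smallest exact permutation p of 0.3333. Within CA3-rule nuclei the core share was 53.7 and 48.5% in MF against 44.7 and 42.4% in HF, without overlap and again at an exact permutation p of 0.3333.

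No gene passed the main test of RNA between HF and MF in CA3-rule nuclei. By edgeR's quasi-likelihood test, 0 of 12480 genes tested (0.0%) were called at FDR under 0.05 and at least 1.2-fold, and 241 had an unadjusted p under 0.05. DESeq2 called 1, Ndnf (FDR 0.0373). Without MF2, 30 genes were called, and without MF1, 6, but none without HF1 or HF2. Such fits leave 1 library in a diet, which is assumed to vary like the other libraries. In core nuclei 0 of 9911 were called and 184 had an unadjusted p under 0.05. Over all CA3-rule nuclei, with same-numbered libraries as a block (the replicate block), edgeR called 25 genes, all higher in HF. Among them were Ndnf and Olfm3 (FDR 7.80e-05 each) and Grik1 (FDR 1.05e-05). The labels do not say whether same-numbered libraries were handled together. Library ranges of MF and HF did not overlap in 3300 genes (26.4%). Grik4 was at -0.01 ± 0.20 (log2 of HF over MF, SE), and none of the rule genes tested was called.

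The 10 genes with the smallest unadjusted p all had higher values in HF, and each had its highest level in a sub-cluster outside the core. Sub-cluster 10, led by subiculum and entorhinal markers, was that place for 6 of them. Only 5 of the 14 sub-clusters were core, and the same shares over all genes tested were not counted. These counts therefore do not set the 10 genes apart from other genes. Sub-cluster 10 made up 6.04 and 6.06% of CA3-rule nuclei in MF against 8.07 and 9.60% in HF (exact permutation p = 0.3333). Ndnf, a secreted neuronal factor, stood at 1.11 and 2.08 CPM in MF against 14.6 and 15.9 in HF (3.31 ± 0.45, FDR 0.127 in edgeR). In core nuclei it stood at 0.740 and 0.857 CPM in MF against 0.741 and 10.9 in HF, so that only HF2 was high. Olfm3, an olfactomedin that binds AMPA receptors, stood at 48.0 and 68.2 CPM in MF against 124 and 127 in HF (1.16 ± 0.21, FDR 0.967). In core nuclei the 4 values were 3.70, 6.00, 4.44 and 7.01 CPM and overlapped. Within sub-cluster 10, which held 9 and 8 nuclei in MF and 13 and 17 in HF, Olfm3 stood at 593 and 503 CPM in MF against 967 and 1010 in HF. Klhl1 stood there at 59.3 and 101 CPM against 226 and 235. These genes were chosen for their diet p on the same counts, so the values inside the sub-cluster are no further evidence. Other genes leading it were mixed. Sntb1 was also higher in HF, at 125 and 119 CPM in MF against 151 and 301 in HF. Pamr1 overlapped, at 46.1 and 94.3 CPM in MF against 96.0 and 75.2 in HF. Myocd went the other way, at 52.7 and 44.0 CPM in MF against 34.3 and 18.04 in HF. So did Cwh43, at 92.3 and 69.1 against 51.4 and 54.1.

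Of these 10 genes, Crispld1 and Cntnap4 were high enough to test in core nuclei. Crispld1 stood at 21.8 and 19.1 CPM in MF against 47.3 and 35.1 in HF over all CA3-rule nuclei (1.06 ± 0.22), and at 28.8, 25.7, 34.8 and 37.4 in core nuclei (0.46 ± 0.27). Cntnap4, a neurexin-like adhesion protein, stood at 51.0 and 59.9 CPM in MF against 88.2 and 119 in HF, and its difference changed sign from 0.96 ± 0.21 to -0.25 ± 0.34 in core nuclei. Grik1, a kainate receptor subunit, stood at 9.60 and 23.7 CPM in MF against 39.1 and 71.0 in HF, and at 0.779 to 4.44 in core nuclei. The others were Klhl1 (1.55 ± 0.31), Kcnip1 (1.92 ± 0.38), Alk (1.33 ± 0.27), Dach1 (1.45 ± 0.33) and Vcan (0.98 ± 0.24). In core nuclei the diets overlapped for Klhl1, Kcnip1 and Dach1 but not for Alk, at 0 CPM in both MF libraries and 5.93 and 3.12 in HF, or Vcan, at 5.18 and 3.43 in MF against 7.41 and 13.2 in HF. The part of the changing mix of sub-clusters in these values was not tested.

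**Figure D5:**
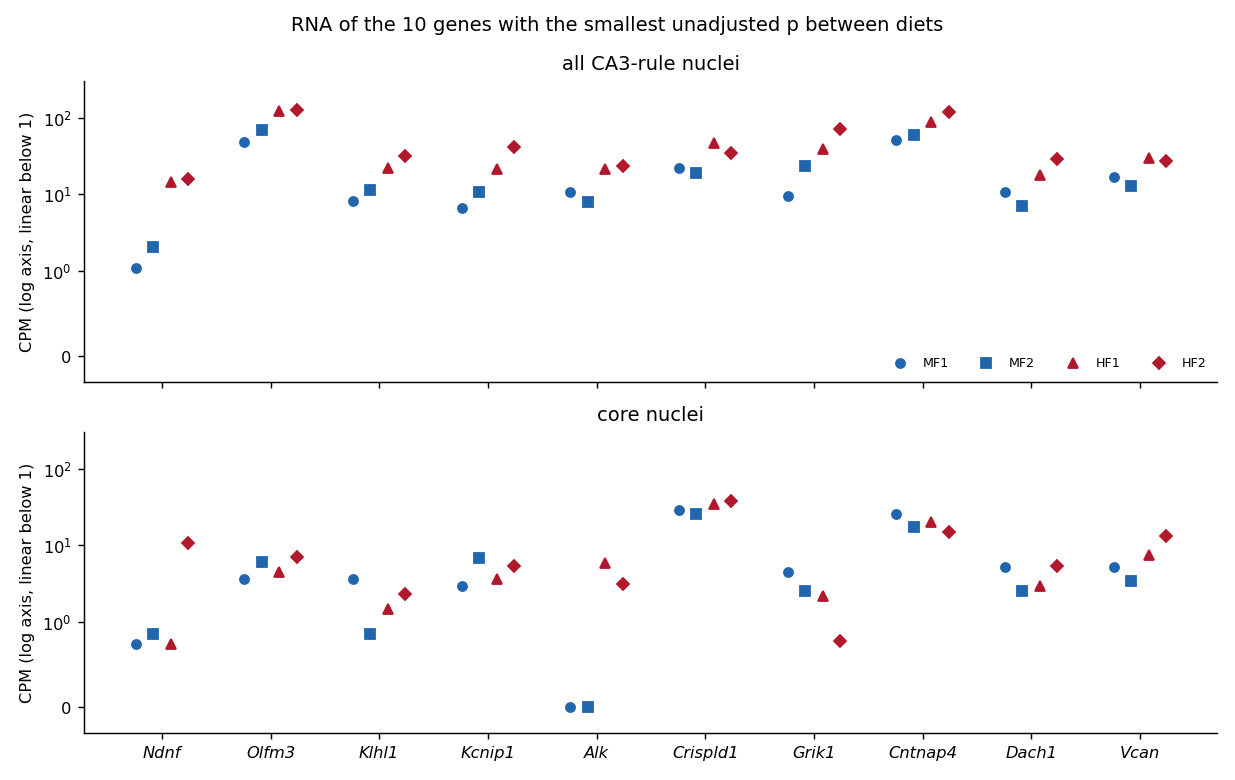
RNA level (CPM, log axis above 1) of the 10 genes with the smallest unadjusted p between diets, in all CA3-rule nuclei (top) and in core nuclei (bottom). Each symbol is 1 library, MF in blue and HF in red. The HF symbols lie above the MF symbols for all 10 genes at the top, whereas Olfm3, Grik1 and Cntnap4 overlap or reverse at the bottom.

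No gene of any list passed the main diet test. With the replicate block, Grik1 and Kcnip1 of these lists were among the calls. Over all genes tested, 6111 of 12480 had higher values in HF and the median difference was -0.01 (log2 of HF over MF). Of 13 CA3 markers outside the rule, 2 had higher and 11 lower values in HF, with a median of -0.10, and in core nuclei 4 of 11 were higher with a median of -0.09. Folate and one-carbon genes had 11 of 27 higher, a median of -0.06 and none with an unadjusted p under 0.05, and in core nuclei 5 of 19 were higher. Medians were -0.003 for kainate receptors (3 of 6 higher), 0.09 for AMPA receptors (10 of 16), 0.11 for NMDA and metabotropic receptors (9 of 12), 0.05 for mossy fibre synapse genes (18 of 28) and 0.07 for channels (26 of 42). GABA receptors had 10 of 14 higher, neurotrophins 10 of 18, transcription factors 30 of 46, immediate early genes 9 of 14, ribosomal protein genes 18 of 81 (median -0.11) and oxidative phosphorylation genes 39 of 88 (median -0.05). In core nuclei 26 of 80 ribosomal protein genes were higher, with a median of -0.07. Members of these lists with an unadjusted p under 0.05 were Lypd1, Grik1, Grm8, Sema6a, Kcnip1, Gabrg3, Erbb4, Foxp2 and Lmo3. Corticosteroid receptor genes and partners had 5 of 8 higher with a median of 0.38, and Nr3c1 and Tsc22d3 had an unadjusted p under 0.05. In core nuclei 4 of 6 were higher and the median was 0.15.

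No marker of another class passed the main diet test, but several of these lists had larger medians than most. All 9 oligodendrocyte lineage markers had higher values in HF, with a median of 0.67, and Mog, Mag, Mobp, Mbp and Vcan were among those with an unadjusted p under 0.05. Their summed level was 500 and 635 CPM in MF against 759 and 882 in HF, and in core nuclei 337 and 410 against 521 and 383, with 5 of 5 tested higher and a median of 0.29. Mbp, the myelin basic protein gene, stood at 122 and 187 CPM in MF against 184 and 278 in HF. Subiculum and entorhinal markers had 6 of 7 higher with a median of 0.37, CA1 markers outside the rule 5 of 9 with 0.24, CA2 markers 7 of 8 with 0.22, granule neuron markers outside the rule 8 of 9 with 0.17 (in core nuclei 5 of 5 with 0.35, of which 2 had an unadjusted p under 0.05), astrocyte markers 6 of 7 with 0.22 and microglia markers 0 of 7 with -0.18 (in core nuclei 3 of 3 with 0.20). Summed microglia markers were 170 and 93.2 CPM in MF against 122 and 86.3 in HF. CA2 markers turned in core nuclei, with 2 of 5 higher and a median of -0.16. Mossy cell markers had 1 of 6 higher with a median of -0.19, and in core nuclei 2 of 3 with 0.10. Transcripts typical of background RNA, summed, stood at 2382 and 2174 CPM in MF against 1359 and 1973 in HF. The part of these markers in the diet values was not tested.

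The diet response of CA3-rule nuclei was tested against that of CA1-rule nuclei by an interaction term in edgeR. Of 11967 genes, 2 (0.0167%) were called, 1 higher and 1 lower (0.00836% each), while DESeq2 called 0 and leaving out MF1, MF2, HF1 or HF2 gave 15, 21, 12 and 25, again with 1 library in a diet. Olfm3 differed by 1.41 ± 0.19 (FDR 0.0157 in edgeR). Its difference within CA3-rule nuclei was 1.16, and its CA1-rule values were 119 and 148 CPM in MF against 107 and 117 in HF. Cntn5, a contactin, differed by -1.10 ± 0.17 (FDR 0.0357 in edgeR). It stood at 555 and 641 CPM in MF against 441 and 487 in HF in CA3-rule nuclei, and at 216 and 181 in MF against 341 and 346 in HF in CA1-rule nuclei. Neither held in core nuclei, where Olfm3 was at 0.52 ± 0.56 and Cntn5 at -0.30 ± 0.42 (FDR 0.998 for each in edgeR). Cntn5 stood at only 6.85 to 14.8 CPM in core nuclei, and its highest level, 3463 CPM, was in sub-cluster 6, led by subiculum and entorhinal markers.

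The same test on core nuclei called 2 other genes of 10521. Unc5d, a netrin receptor, differed by -2.36 ± 0.33 (FDR 1.72e-04 in edgeR). It stood at 307 and 371 CPM in MF against 263 and 326 in HF in core nuclei, against 47.7 and 6.09 in MF against 130 and 161 in HF in CA1-rule nuclei, so the values that set the diets apart were those of CA1-rule nuclei. Zfp804b differed by -2.06 ± 0.36 (FDR 0.0107 in edgeR), at 48.1 and 75.4 CPM in MF against 40.7 and 65.4 in HF in core nuclei and 15.5, 14.6, 29.5 and 93.0 in CA1-rule nuclei. Core values of both genes overlapped between diets.

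No ATAC region was called between diets in the main test, and 1 was with the replicate block. Of 120062 regions tested in CA3-rule nuclei 0 (0.0%) passed in edgeR or in DESeq2, and 4962 had an unadjusted p under 0.05 in edgeR. Without MF2, 26 regions were called, without HF1, 12, without MF1, 1, and without HF2, 0, each with a lone library as above. In core nuclei 0 of 73176 passed. Among the 5 with the smallest p, a region in an intron of Nrg3 (chr14:39333609-39334515) stood at 4.02 and 3.68 ATAC CPM in MF against 12.3 and 11.6 in HF (1.65 ± 0.38), and at 5.44, 3.44, 17.0 and 14.7 in core nuclei. Nrg3 encodes a neuregulin that acts on excitatory synapses of interneurons. A region in an exon of Itga2 (chr13:114848893-114849866) stood at 3.02 and 11.8 in MF against 0.850 and 1.55 in HF (-2.56 ± 0.59). The HF and MF libraries did not overlap at either region, as at 32.6% of all regions tested, and neither passed the adjustment (FDR 0.9999 in edgeR).

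The remaining regions rested on few counts. A region in an exon of Syne1 (chr10:5056030-5056953) held 13 and 21 counts in MF against 0 and 1 in HF, and a region 1.61 kb before Drc7 (chr8:95052994-95053994) held 16 and 15 in MF against 0 and 1 in HF. A region 83.6 kb before Diaph3 (chr14:87224342-87225307) held 1 and 3 counts in MF against 16 and 33 in HF. In core nuclei the Drc7 region held 4 and 2 counts in MF and 0 in both HF libraries, so most of its counts lay outside the core.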

How the data were processed

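Single-nucleus multiome libraries of P21 mouse hippocampus, 2 MF and 2 HF, each with GEX and ATAC, were analysed. Per the labels and the study's methods, the authors aligned reads to mm10 and counted them with Cell Ranger ARC 2.0.1. The deposited values were raw counts, UMIs per gene and ATAC counts per peak of each library. Kept nuclei (11518 of 14297) had 1000 to 70000 ATAC counts, 500 to 7000 genes and less than 2% of UMIs from mitochondrial genes. The authors' further filters on nucleosome signal and start site enrichment were not applied here. No doublet was removed in the main results, and Scrublet scores served as an alternative. The deposited tables held 0 columns of other series.

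Members and gene lists were chosen with earlier results of these data known. Counts were summed per library and class. CA1-rule nuclei held Slc17a7, at least 2 of Fibcd1, Wfs1 and Wnt2, fewer than 4 Grik4 UMIs and at most 1 UMI of Prox1 and of Gad2. Granule-rule nuclei held Slc17a7, at least 2 Prox1 UMIs and at least 2 of C1ql2, Dsp, Stxbp6, Glis3 and Pdzd2, fewer than 2 of the CA1 genes, at most 1 Gad2 UMI and were not CA3-rule nuclei. Sums were tested with edgeR 4.0.16 (TMM, filterByExpr, quasi-likelihood test, Benjamini-Hochberg FDR), with DESeq2 1.42.0 as an alternative in R 4.3.3. Shares were compared by an exact permutation test. Peaks were merged over libraries (253710 regions) and genes placed by the GENCODE annotation of mm10. Sub-clusters came from scanpy 1.11.5 (2000 variable genes, 20 principal components, 15 neighbours, Leiden resolution 0.8). Scripts were tested on simulated data.

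Genes named were the 20 highest and 5 lowest by their smallest fold over other kept nuclei at 20 CPM or more, from which examples were printed, list members past 2-fold or the 3 largest of a list, the 10 smallest p between diets, called interaction genes and the rule's genes. Regions named were the 8 higher and 4 lower than both classes with the smallest p against CA1-rule nuclei, the 5 smallest p between diets and start regions of rule genes. Genes named in core comparisons, Nrp2, Ephb1 and Unc5d among them, were partly chosen after their values were seen. Items withheld for evaluation are not reported here.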

Additional observations from a re-analysis of the deposited data

Results flagged for a closer look

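Olfm3 and Cntn5 were picked out because their response to diet differed between CA3-rule and CA1-rule nuclei by the interaction term in edgeR. Olfm3 differed by 1.41 ± 0.19 on the log2 scale and Cntn5 by -1.10 ± 0.17. In core nuclei the values were 0.52 and -0.30, and neither passed the test. The part of sub-clusters outside the core in either value was not tested.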

How the results depend on the processing

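The difference in the share of CA3-rule nuclei (-0.132 points, HF less MF) turned to 0.131 with at least 6 Grik4 UMIs and to 0.728 as a share of Slc17a7 nuclei, and ranged from -0.869 to 0.605 with 1 library left out (0.233 without MF2, 0.605 without HF1). Genes 2-fold apart from the other kept nuclei numbered 362, 738 in core nuclei and 706 at 5 CPM or more. Calls between diets in RNA rose from 0 to 1 with DESeq2, 9 without a filter, 1 without nuclei of high Scrublet score and 0 to 30 with 1 library left out. Interaction calls went from 2 to 0 with DESeq2, 24 without a filter, 7 without nuclei of high Scrublet score, 6 and 1 with at least 6 or 3 Grik4 UMIs, 0 without nuclei holding at least 2 CA2 or mossy cell markers (35, 32, 33 and 41 nuclei kept), and 12 to 25 with 1 library left out. Diet calls in ATAC regions ranged from 0 to 26 with 1 library left out. Against CA1-rule nuclei, regions fell from 20014 to 8269 at 4-fold and 7449 (2385 more, 5064 less accessible) without nuclei holding those markers, and against granule-rule nuclei from 42155 to 12067 and 22207 (8024 more, 14183 less). Gene accessibility calls against CA1-rule nuclei fell from 3581 to 2260 with DESeq2, 1793 without those nuclei and 1237 within 2 kb of the start, and against granule-rule nuclei from 8641 to 4308 and 4540. Cntnap4 turned to -0.25 in core nuclei and Grik4 accessibility over granule-rule nuclei to -0.033 within 2 kb of the start. Fewer samples, nuclei or regions enter some of these settings by construction, and the cause of the other changes was not tested.

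By the labels, libraries of the diets shared only a replicate number. Same-numbered libraries were also alike in the share of CA3-rule ATAC counts inside the regions used. It was 93.5% in MF1 and 93.5% in HF1, against 88.6% in MF2 and 89.9% in HF2. Deviations of same-numbered libraries correlated at 0.219 in RNA and 0.0246 in ATAC over 2 pairs. With the replicate block, calls numbered 25 for diet RNA, 39 for the interaction and 1 for diet ATAC regions. The accessibility tests between classes had library as the block. With that library block left out, calls against CA1-rule nuclei were 2267 for genes and 18504 for regions, and against granule-rule nuclei 6542 and 40418.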
